A study of Mus musculus with 6 samples.

Results

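Mitosis and G2/M genes were followed in whole mouse skin as 37 named genes, found in the deposited table of 17564 genes by their symbol, with 1 row for each of the 37. They were compared between 2 groups of 3 samples of back skin from 8-week-old wild-type C57BL/6 mice kept free of specific pathogens. The untreated group was shaved and depilated and received nothing else. The treated group was also shaved and depilated and had 3 µg of SspA, also known as V8 protease, which Staphylococcus aureus secretes, put on together with 10 µg of house dust mite extract (HDM) on the skin surface, was given both again 3 days later, and was collected on day 7, counted from the first dose. No collection day is given for the untreated samples, so treatment and time since depilation cannot be told apart in what follows. Nothing says that samples came from separate mice. The p-values below therefore speak only of the variation among the 6 samples, part or all of which may be technical. Gene positions are the transcript's span in the deposited table (mm10). Below, U1 to U3 are untreated and T1 to T3 treated replicates 1 to 3.

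Cells enter mitosis when the kinase CDK1 binds cyclins A and B, and a set of further kinases then drives centrosome separation, chromosome condensation and spindle assembly. Kinetochores tie the chromosomes to spindle microtubules, and the spindle checkpoint holds the anaphase-promoting complex (APC/C) back until all are attached. Once released, the complex marks cyclin B and securin for destruction, sister chromatids part and the cell divides. Transcripts of these genes rise together in G2 through a promoter element called CHR, the cell cycle genes homology region, bound by the MuvB complex with B-MYB and FOXM1. In resting skin the dividing cells are mostly basal keratinocytes, and the matrix of a growing hair follicle divides fast. Thickening of the epidermis after injury or inflammation brings more keratinocytes into the cycle, and immune cells can divide in the tissue as well.

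Values are scaled reads, that is, reads of a gene divided by 1 factor per library, which puts the libraries on a common scale. The libraries held 4928245 (U2) to 7545567 (T3) reads, and members had between 70 and 2632 reads in a library. Within a group, the libraries correlated at a Spearman rho of 0.9805 to 0.9937 over all genes. The basal keratinocyte genes Krt5 and Krt14 were present in every library, as defining markers of the labelled tissue, with 1657 to 1828 and 1263 to 1496 reads before scaling.

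Many mitotic genes had more transcript in treated skin. Of the 37 members, 16 rose and 0 fell (limma on log2(scaled reads + 1), Benjamini-Hochberg adjusted p under 0.05 over 15534 tested genes), where 9.26% of all tested genes rose and 7.23% fell. The count of members with a lower level was 0 at an unadjusted p under 0.05 too, and 0 by edgeR, DESeq2 and limma-voom. Rises were modest, from 1.45-fold to 2.12-fold, and the median log2 fold change over the 37 was 0.48, beside 0.03 over all tested genes. A further 11 members had adjusted p between 0.05 and 0.1. For 28 of the 37, all 3 treated libraries lay above all 3 untreated ones, where 21.7% of tested genes did so. In a bulk sample, more dividing cells and more transcript per dividing cell cannot be told apart.

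The treated libraries differed in how far they stood above the untreated ones. T1 held the highest value of 35 members and T3 that of the other 2, Cenpf and Espl1, while among treated libraries T3 was lowest for 24 and T2 for 13. Relative to the untreated mean, the median member stood at 0.70 in T1, 0.39 in T2 and 0.28 in T3 on the log2 scale, and between -0.07 and 0.04 in the untreated libraries. The summed level of the 37 was 21790, 17530 and 16758 scaled reads in T1, T2 and T3 and 12568 to 13814 in the untreated libraries, so the groups did not overlap. Without T1, 11 members rose, where 5.47% of tested genes did, and the median log2 fold change was 0.30. Without T3, the deepest library, 25 rose, all 16 included, where 9.05% of tested genes did.

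**Figure D1:**
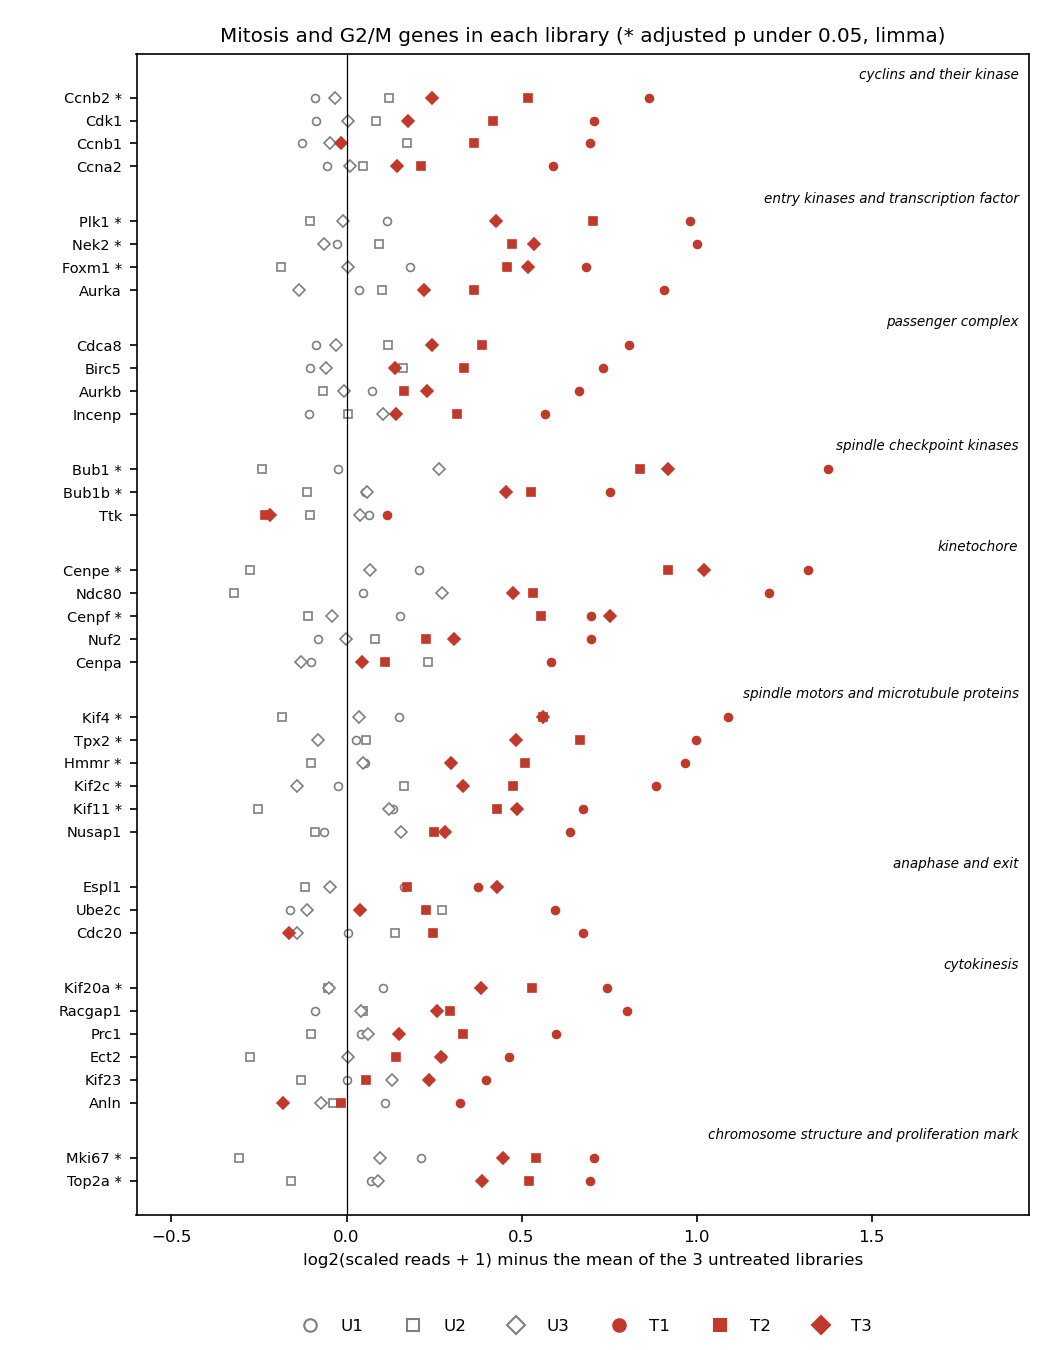
Each row is a member and each symbol a library, plotted as log2(scaled reads + 1) minus the mean of the 3 untreated libraries (x axis), with members grouped by role and open grey symbols for untreated and filled red ones for treated skin. Asterisks mark the 16 members with adjusted p under 0.05, and T1 is the rightmost symbol for 35 of 37 members.

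The cyclins and their kinase were higher in the treated group mean, and 1 of these 4 genes passed the test. Ccnb2 (chr9:70407689-70421554, minus strand), a cyclin B, had 191, 221 and 199 scaled reads in U1 to U3 and 371, 292 and 241 in T1 to T3. The groups did not overlap, T3 lying closest to the untreated libraries, and Ccnb2 rose 1.46-fold (log2 fold change 0.54 ± 0.16 SE, adjusted p = 0.0479). That call was close to the threshold: adjusted p over the fits that leave out 1 library was 0.0122 to 0.139, with 0.139, 0.0765 and 0.106 when U1, U2 or U3 was left out and 0.116 and 0.118 when T1 or T2 was. Ccnb1, the other B-type cyclin and the main partner of CDK1, had 149, 184 and 158 scaled reads untreated and 265, 210 and 161 treated. Its groups overlapped, since T3 lay below U2, and the log2 fold change was 0.35 ± 0.18 SE (adjusted p = 0.236, called in the 4 libraries of like depth at 0.0291, 0.0291 to 0.529 over the alternatives other than the test against 1.5-fold). Cdk1 itself had means of 272 ± 16.1 untreated and 372 ± 68.8 treated scaled reads (SD, n = 3; adjusted p = 0.0621) and Ccna2, cyclin A2, had 614 ± 22.3 and 772 ± 134 (adjusted p = 0.0974). Neither overlapped between groups, and both passed without T3 (0.0154 for Cdk1 and 0.0426 for Ccna2).

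Among the kinases that drive entry into mitosis and the transcription factor FOXM1, 3 of 4 rose. Plk1 (chr7:122159435-122169884, plus strand), the polo-like kinase of centrosome maturation and mitotic entry, had 202, 174 and 185 scaled reads untreated and 370, 305 and 251 treated. Plk1 had no overlap between groups and rose 1.63-fold (0.70 ± 0.15 SE, adjusted p = 0.0164; 0.0518 without U2 and 0.0566 without T2, and 0.00477 to 0.0566 over the leave-one-out fits). Nek2, which splits the centrosomes, had 169, 184 and 165 untreated and 346, 240 and 250 treated. Here T1 stood well above T2 and T3, and the rise was 1.59-fold (0.67 ± 0.15 SE, adjusted p = 0.0212; 0.0686 without U1 and 0.0545 without U3, and 0.0191 to 0.0686 over the leave-one-out fits). Foxm1 (chr6:128362994-128375886, plus strand), the activator of G2/M genes, had 364, 282 and 322 untreated and 516, 441 and 460 treated, with T2 and T3 alike. It rose 1.47-fold (0.55 ± 0.11 SE, adjusted p = 0.0149) and stayed under 0.05 in all 6 leave-one-out fits, the highest adjusted p being 0.0496. Aurka, the kinase of the spindle poles, had means of 180 ± 15.1 untreated and 260 ± 68.5 treated scaled reads (SD, n = 3). Its groups did not overlap but the spread within the treated group was large, with 338 in T1 and 210 in T3 (adjusted p = 0.0911; 0.0381 without T3 and 0.0381 to 0.206 over the leave-one-out fits).

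The chromosomal passenger complex corrects faulty attachments and later works at the midzone, and 0 of its 4 genes passed the limma test, although 4 of 4 were higher at an unadjusted p under 0.05. Aurkb, its kinase, had means of 209 ± 10.2 untreated and 270 ± 53.2 treated scaled reads (SD, n = 3; adjusted p = 0.133). Birc5, or survivin, had means of 243 ± 24.8 untreated and 326 ± 70.3 treated (adjusted p = 0.116), with T3 at 267 just under U2 at 271. Cdca8, or borealin, had log2 fold change 0.48 ± 0.15 SE (adjusted p = 0.0609) and the scaffold Incenp 0.34 ± 0.12 SE (adjusted p = 0.0808), each without overlap. Without T3, adjusted p was 0.0395 for Birc5, 0.0252 for Cdca8 and 0.0259 for Incenp, and 0.113 for Aurkb. By edgeR, DESeq2 and limma-voom, 0 of the 4 were called.

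Of the 3 checkpoint kinases, 2 rose. Bub1 (chr2:127800200-127831859, minus strand), which recruits the other checkpoint proteins to kinetochores, had 169, 145 and 207 scaled reads untreated and 448, 308 and 326 treated. All 3 treated libraries lay well above the untreated ones, and Bub1 rose 2.06-fold (1.04 ± 0.18 SE, adjusted p = 0.00744). Bub1b (chr2:118598211-118641592, plus strand), which encodes the APC/C inhibitor BUBR1, had 374, 333 and 375 untreated and 607, 519 and 494 treated, and rose 1.49-fold (0.58 ± 0.10 SE, adjusted p = 0.00891). Both kept their call in all 6 leave-one-out fits, with adjusted p up to 0.0305 for Bub1 and 0.032 for Bub1b. Ttk, the MPS1 kinase at the top of the checkpoint, was the 1 member with a negative log2 fold change. Its values were 293, 261 and 289 untreated and 304, 239 and 241 treated, so T1 was above and T2 and T3 below the untreated libraries (-0.11 ± 0.12 SE, adjusted p = 0.586). Per kb of transcript, Bub1 stood at 0.372 to 0.479 of the Ttk level in the untreated libraries and at 0.864 to 0.984 of it in the treated ones, a pair chosen after its values were seen and given without a test.

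At the kinetochore, 2 of 5 genes rose. Cenpe (chr3:135212563-135273540, plus strand), the kinesin that carries chromosomes to the spindle equator, had 375, 268 and 340 scaled reads untreated and 810, 613 and 659 treated. Its lowest treated value exceeded its highest untreated one by a wide margin, and the 2.12-fold rise (1.09 ± 0.15 SE, adjusted p = 0.00368) was the largest of the 37. Cenpf (chr1:189640614-189688086, minus strand), a large coiled-coil protein of the outer kinetochore, had 559, 466 and 489 untreated and 816, 739 and 849 treated, and T3 was here the highest library. It rose 1.59-fold (0.67 ± 0.09 SE, adjusted p = 0.00438). The microtubule-binding pair Ndc80 and Nuf2 had log2 fold changes of 0.74 ± 0.23 SE (adjusted p = 0.0586) and 0.41 ± 0.15 SE (adjusted p = 0.0926), both without overlap. Ndc80 had the fewest reads of the members, with 90.1 to 136 scaled reads untreated, and passed without T3 (0.0403; 0.0403 to 0.169 over the leave-one-out fits). Cenpa, the histone variant that marks the centromere, had means of 275.5 ± 40 untreated and 329 ± 70.6 treated (SD, n = 3), and its groups overlapped (adjusted p = 0.343).

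Of the spindle motors and microtubule proteins, 5 of 6 rose, and all 6 had groups that did not overlap. Tpx2 (chr2:152847964-152895321, plus strand), the activator of Aurora A on spindle microtubules, had 396, 404 and 367 scaled reads untreated and 777, 618 and 544 treated, and rose 1.64-fold (0.72 ± 0.13 SE, adjusted p = 0.00882). Kif4, a motor on chromosome arms, had 268, 212 and 248 untreated and 516, 357 and 357 treated, T2 and T3 being nearly equal. It rose 1.67-fold (0.74 ± 0.16 SE, adjusted p = 0.0173; 0.0558 without U2 and 0.0126 to 0.0558 over the leave-one-out fits). Kif11 (chr19:37376382-37421863, plus strand), the motor that pushes the poles apart, had 541, 414 and 536 untreated and 788, 665 and 692 treated and rose 1.45-fold (0.53 ± 0.12 SE, adjusted p = 0.0196; 0.0645 without T1 and 0.0242 to 0.0645 over the leave-one-out fits). Hmmr, a spindle protein that binds Tpx2, and Kif2c, which takes microtubules apart at their ends, rose 1.51-fold (adjusted p = 0.0372) and 1.48-fold (adjusted p = 0.0443). Both lost the call when any library other than T3 was left out, with adjusted p of 0.0709 to 0.11 for Hmmr (0.0874, 0.11 and 0.0709 leaving out U1, U2 or U3, and 0.0712 and 0.0825 leaving out T1 or T2). For Kif2c it was 0.117, 0.0597 and 0.114 leaving out U1, U2 or U3, and 0.11 and 0.0942 leaving out T1 or T2. Nusap1, which stabilises spindle microtubules, had means of 320 ± 30.7 untreated and 422 ± 65.6 treated (SD, n = 3; adjusted p = 0.0672).

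Genes of anaphase onset and mitotic exit had the lowest median log2 fold change of the roles (0.29), and 0 of 3 passed the limma test, with 1 of 3 higher at an unadjusted p under 0.05. Cdc20, the APC/C activator, had 296, 324 and 267 scaled reads untreated and 472, 350 and 263 treated. T1 stood apart while T3 was below all 3 untreated libraries (0.25 ± 0.19 SE, adjusted p = 0.408). Ube2c, the ubiquitin-conjugating enzyme of the APC/C, had means of 192 ± 33.1 untreated and 236 ± 47.5 treated (SD, n = 3; adjusted p = 0.301), and its groups overlapped. Espl1, or separase, the protease that cuts cohesin, had 379, 311 and 327 untreated and 439, 381 and 455 treated, with T2 only just above U1 (0.33 ± 0.11 SE, adjusted p = 0.0765). In the 4 libraries of like depth, Cdc20 and Ube2c had adjusted p = 0.0436 each, beside a highest value of 0.88 and 0.629 over the alternatives other than the test against 1.5-fold. By edgeR, DESeq2 and limma-voom, 0 of the 3 were called.

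For cytokinesis, 1 of 6 genes rose, namely Kif20a, the kinesin that moves the passenger complex to the midzone. It had 464, 416 and 417 scaled reads untreated and 724, 623 and 564 treated, with no overlap, and rose 1.47-fold (0.55 ± 0.11 SE, adjusted p = 0.0112), also in all 6 leave-one-out fits. Racgap1 and Kif23 together form centralspindlin. Racgap1 did not overlap between groups (0.45 ± 0.14 SE, adjusted p = 0.0624, 0.033 without T3), whereas Kif23 did (0.23 ± 0.12 SE, adjusted p = 0.215). Prc1, which bundles midzone microtubules, had log2 fold change 0.36 ± 0.12 SE (adjusted p = 0.0658, 0.018 without T3), and Ect2, which switches on RhoA at the cell equator, 0.29 ± 0.15 SE (adjusted p = 0.216). Anln, or anillin, a scaffold of the contractile ring, had 686, 619 and 604 untreated and 795, 628 and 560 treated. Anln was thus highest in T1 and lowest in T3, with all untreated values in between (0.04 ± 0.13 SE, adjusted p = 0.858, and -0.10 without T1). Per kb, Kif20a stood at 1.02 to 1.05 times the level of Anln in the untreated libraries and at 1.38 to 1.53 times in the treated ones, again a pair chosen after its values were seen.

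Both genes of chromosome structure and of the proliferation mark rose. Mki67 (chr7:135689788-135716379, minus strand), which encodes the Ki-67 protein that coats mitotic chromosomes and marks cycling cells in histology, had 1879, 1311 and 1732 scaled reads untreated and 2647, 2362 and 2211 treated. U2 was lowest by a margin, the groups did not overlap, and Mki67 rose 1.48-fold (0.57 ± 0.13 SE, adjusted p = 0.0226; 0.0753 without T1, 0.0647 without T2 and 0.0184 to 0.0753 over the leave-one-out fits). Top2a (chr11:98992947-99024189, minus strand), the topoisomerase that untangles sister chromatids, had 989, 844 and 1004 untreated and 1527, 1355 and 1233 treated. It rose 1.45-fold (0.53 ± 0.10 SE, adjusted p = 0.0111) and kept its call in all 6 leave-one-out fits, as did Bub1, Bub1b, Cenpe, Cenpf, Tpx2, Kif20a and Foxm1, which makes 8 of the 16.

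**Figure D2:**
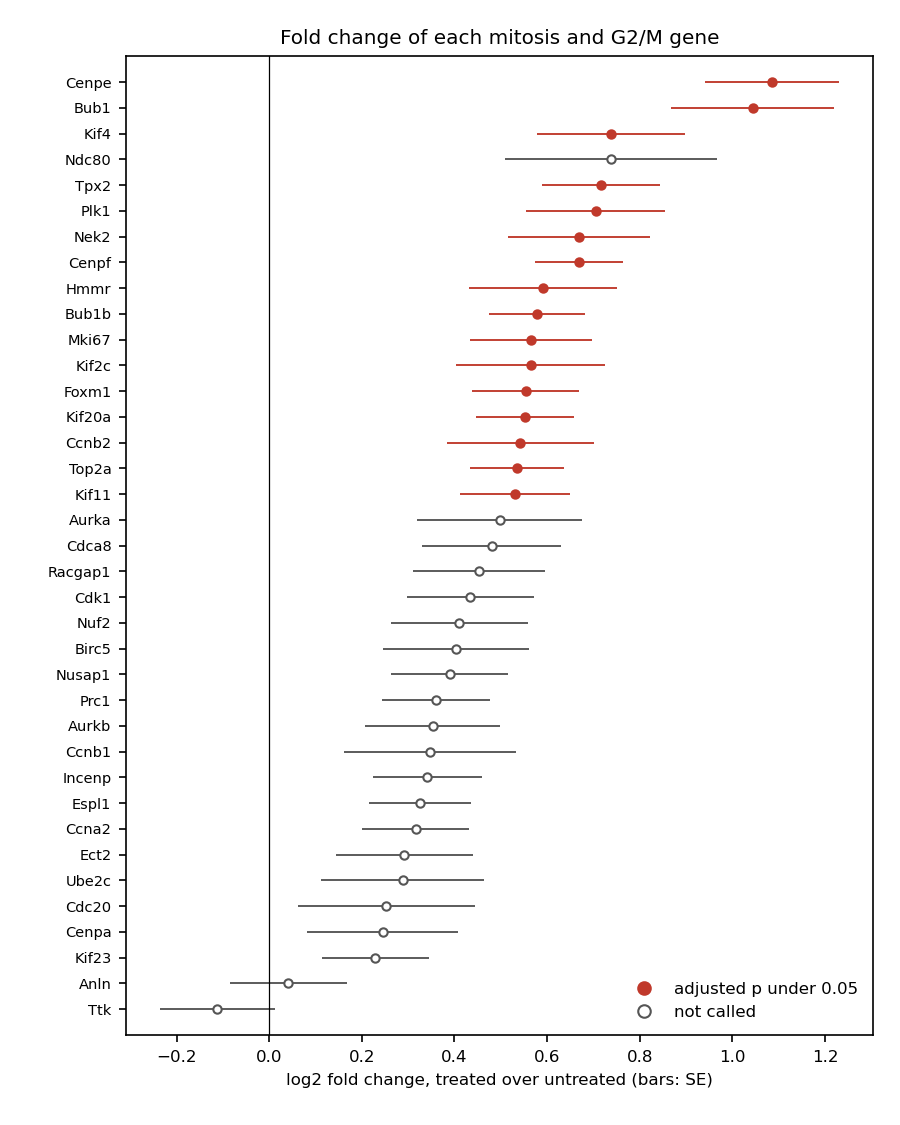
Log2 fold change of treated over untreated skin (x axis) for each of the 37 members, with bars for the SE, filled red where the adjusted p was under 0.05. Cenpe (1.09) and Bub1 (1.04) lie at the top, and Anln (0.04) and Ttk (-0.11) at the bottom.

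Per kb of transcript, members ranged from 40.4 scaled reads (Bub1) to 208 (Ube2c) in the untreated mean and from 63.9 (Espl1) to 265 (Top2a) in the treated mean. Members with a low level per kb in untreated skin had the larger fold changes (Spearman rho -0.52 across the 37 genes, which share the 6 libraries and whose untreated values enter both measures). Calls were also more frequent among longer transcripts. Of 12 members with at least 4000 bases, 9 rose, and of 7 members under 2000 bases 1 did, namely Ccnb2. The share of all tested genes called at these lengths was not counted, so these counts cannot be set against it. The rho of fold change with length was 0.32 across the members and 0.10 across all tested genes, whose median log2 fold change was -0.05 in genes of 53 to 1142 bases and 0.09 in those of at least 6331 bases. The part of length in the result was not tested. Spans of Ccna2, Cdc20, Kif20a and Nusap1 overlap a gene on the other strand and that of Foxm1 a gene on the same strand. Whether the counting used strand is not given in the sources used here, so the reads of these 5 members are less certain.

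The authors' deposited table, made with DESeq2 per the submitters' processing notes, calls 17 of the 37 higher (7.26% of its genes are), the 16 called here and Ndc80. On reads recovered from the scaled values, DESeq2 called 17 (background 7.3%), of which 16 were called here and the other was Ndc80, edgeR's quasi-likelihood test 14 (8.04%) and limma-voom 13 (6.83%), and each of the 13 and 14 was among the 16. With the 4 libraries of like depth (without U2 and T3), 27 rose (8.73% of tested genes did), and without a trend in the spread 10 did (5.94%). Against a 1.5-fold change, 0 of the 37 passed.

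Of 73 other genes of mitosis, which are not among the members, 37 rose and 0 fell, with 0 lower at an unadjusted p under 0.05 and by edgeR, DESeq2 and limma-voom, and the median log2 fold change was 0.53. The log2 fold change was negative for 4 of the 73. Pimreg, a mitotic regulator that recruits the protein CALM, had 53.8, 37.3 and 36.4 scaled reads untreated and 133, 139 and 128 treated (1.65 ± 0.20 SE, adjusted p = 0.00253). Its 3 treated libraries were nearly equal. The outer kinetochore genes Dsn1 (1.04 ± 0.15 SE, adjusted p = 0.00432) and Knl1 (0.96 ± 0.15 SE, adjusted p = 0.00599) rose, as did Kif20b (0.88), Spag5 (0.68) and Aspm (0.65), whose products work in cytokinesis and at the spindle. Leaving out single libraries lowered the count of this list by more than 1.5 times, to 20 without U1, to 23 without U2 and to 21 without either T1 or T2.

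Of 52 genes of DNA replication and the G1/S transition, 21 rose (40.4%, beside 9.26% of all tested genes) and 0 fell, and the median was 0.48. At an unadjusted p under 0.05, and by edgeR, DESeq2 and limma-voom, 0 were lower too. Pole, a replicative polymerase, had 211, 197 and 276 untreated and 375, 380 and 384 treated scaled reads (0.75 ± 0.13 SE, adjusted p = 0.00879). Dbf4, the activator of the origin-firing kinase CDC7 (0.75, adjusted p = 0.00891), and Ccne1, cyclin E1 (0.88, adjusted p = 0.0183; 0.0639 without U1 and 0.0508 without U2), rose too. Many of these calls were lost when U1, U2, T1 or T2 was left out: the count was 3 without U1, 4 without either U2 or T1, and 5 without T2. The 4 of 52 without T1 lay close to the 5.47% of all tested genes that rose in that fit. Pole and Dbf4 kept their calls in all 6 leave-one-out fits, with adjusted p up to 0.036 and 0.0344. Brca1, with the largest log2 fold change of this list (1.05, adjusted p = 0.0103), did so too (up to 0.0393). Ccne1 kept its call without U3 (0.0337), T1 (0.0448), T2 (0.0452) or T3 (0.0117).

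Among 36 tested genes for G1 cyclins, CDK inhibitors, pocket proteins and the MuvB complex, 4 rose and 0 fell by limma, and the median was 0.12. The share that rose, 11.1%, was near the 9.26% of all tested genes. The 4 were E2f7 (1.63 ± 0.24 SE, adjusted p = 0.00487), a repressor that E2F factors themselves induce, the MuvB subunits Lin9 (0.67, adjusted p = 0.012) and Lin54 (0.37, adjusted p = 0.0371), and Cdk2 (0.35, adjusted p = 0.0303). Cdk2 lost its call without U1 (0.108), U2 (0.0832), T1 (0.0842) or T2 (0.0787), and Lin54 without U1 (0.0852), U2 (0.1), T1 (0.0962), T2 (0.0797) or T3 (0.0673), so 2 rose without U1, U2, T1 or T2. DESeq2 called neither Cdk2 (adjusted p = 0.0984) nor Lin54 (0.0993), and the authors' deposited comparison called neither (0.0999 and 0.101). At an unadjusted p under 0.05, 3 genes of this list were lower. Ccng1, a target of p53, was lower by edgeR and DESeq2 (log2 fold change -0.39 and adjusted p = 0.0523 by limma, with 1461 to 1890 scaled reads untreated and 1095 to 1348 treated, without overlap).

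Subunits of the APC/C and of cohesin, which cells need outside mitosis as well, gave 0 calls among 25 genes by limma, and also 0 by edgeR, DESeq2 and limma-voom. At an unadjusted p under 0.05, 3 were higher and 1 lower, and the median was 0.07. Pds5a, a regulator of cohesin, had the smallest p (0.21 ± 0.08 SE, adjusted p = 0.0917).

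**Figure D3:**
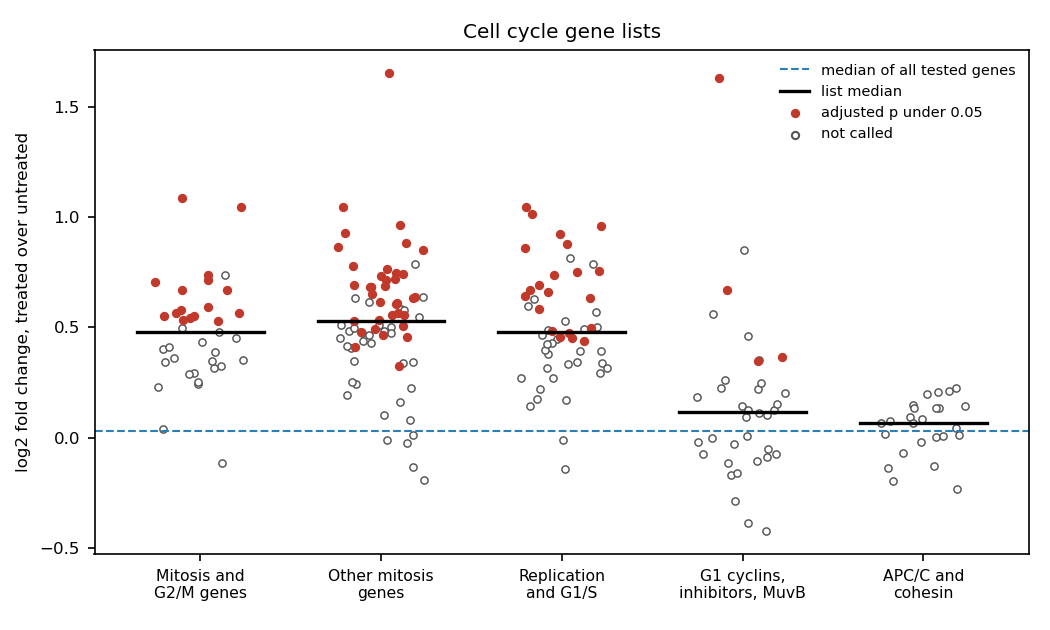
Log2 fold change of treated over untreated skin (y axis) of every tested gene in 5 cell cycle lists, filled red where adjusted p was under 0.05, with a black line at each list's median and a dashed line at the median of all tested genes (0.03). The medians are 0.48, 0.53, 0.48, 0.12 and 0.07 from left to right.

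Markers of other cell states also differed between the groups in the same libraries. Of the 20 markers of hair matrix and inner root sheath, 17 were tested, 10 rose (4 by limma-voom) and 1, Gata3, fell (not called without U1, U2, T1 or T2), and their summed level was 2329 to 2404 scaled reads untreated and 4713, 2883 and 8210 in T1, T2 and T3. Krt72, which did not pass the filter for limma, had 0 reads in all 3 untreated libraries and 3, 1 and 29 in T1, T2 and T3. Krt25 had 1 read in each untreated library and 293, 76 and 746 in T1, T2 and T3. Among treated libraries the summed hair list was highest in T3 and lowest in T2, while 35 of the mitotic genes were highest in T1. What sets these orders among 3 treated libraries was not tested. Summed activated keratinocyte markers were 4545 to 4614 untreated and 8130, 7365 and 5241 in T1, T2 and T3, and 5 of 8 rose. These were Gjb2, Gjb6, S100a8, S100a9 and Krt6b. The groups of Krt6b overlapped (adjusted p = 0.0444, but 0.057 by edgeR and 0.0734 by limma-voom). Krt6b lost the call when any library other than T3 was left out. Krt6a and Krt16 were called without T3 (0.0113 and 0.0168) but not with all libraries, and Krt17 was not called. In 6 of these 8, reads reached at least 0.5 per base of transcript in some library, and no gene in any library exceeded 0.923. Neutrophil markers were 827 to 1067 untreated and 4906, 3779 and 1738 in T1, T2 and T3, and 8 of 9 tested rose (5 by limma-voom). Ly6g, which did not pass the filter for limma, had 0 reads in all untreated libraries and 27, 9 and 3 in T1, T2 and T3. S100a8 and S100a9 are in both the activated keratinocyte and the neutrophil list.

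Some markers of basal and suprabasal keratinocytes were near that ceiling of reads per base. The scaled values of those markers cannot be read as levels that did or did not rise. Other markers of these lists lay lower, such as Trp63 (0.392 at most) and Lamb3 (0.278 at most). Krt14 reached 0.907 and the suprabasal Krt1 0.901 reads per base. Krt5 had 1738, 1657, 1692, 1828, 1723 and 1738 reads in U1 to U3 and T1 to T3, nearly the same number at every depth, and its scaled value was lowest in T3 (1460), the deepest library. At least 0.5 reads per base were reached by 3 of 8 basal and 6 of 8 suprabasal markers. The summed scaled reads were 13508 to 14122 untreated and 14186, 13342 and 11053 in T1, T2 and T3 for the basal list and 12341 to 13099 untreated and 10848 to 12190 treated for the suprabasal list. By limma, 0 of 8 basal markers rose and 2 fell, Krt15 (adjusted p = 0.00862) and Col17a1 (0.0132, but 0.052 without U1). Of the 8 suprabasal markers 0 rose and 2 fell, Lor (0.0113) and Sbsn (0.0112). These counts were the same by edgeR, DESeq2 and limma-voom. Without T3, Lamb3 was called higher (0.0417) and Ivl lower (0.0081). How far the scaling of nearly constant reads sets these sums and calls was not tested. Monocyte and macrophage markers summed to 5026 to 6664 untreated and 7132 to 10034 treated, highest in T2, and 3 of 12 rose (6 without T3). T and NK cell markers had sums of 324 to 448 untreated and 749 to 944 treated, and 6 of 10 tested rose. Only 3 rose without T2, when Cd8a (adjusted p = 0.0663), Gzma (0.055) and Gzmb (0.0667) lost their calls. The log2 fold change was negative for 3 of the 10. Cd3e (-0.49, adjusted p = 0.103, 0.0378 with no trend in the spread) and Cd3g (-0.22, adjusted p = 0.404) were lower without overlap. Cd3d was higher without overlap (0.92, adjusted p = 0.0747). Melanocyte markers summed to 1090 to 1226 untreated and 2148 to 2710 treated, and 5 of 7 rose. Sums of B and plasma cell markers were 34.1 to 42.9 untreated and 38.4 to 47.9 treated, those of erythroid and marrow precursor markers 212 to 261 and 167 to 240, and 0 genes of either list were called. Fibroblast markers summed to 13076 to 15568 untreated and 14479 to 18287 treated with 0 of 7 called, 6 of them at 0.5 reads per base or more. Endothelial markers summed to 3746 to 4326 and 4748 to 5649. By limma 2 of 7 were higher, Vwf and Emcn, of which Emcn (adjusted p = 0.0452) was not called by edgeR (0.0569), DESeq2 (0.103) or limma-voom (0.0509), nor when U1 (0.142), U3 (0.085), T1 (0.11), T2 (0.122) or T3 (0.0637) was left out, and 1 was then higher without U1, U3, T1 or T2. The part of any of these cell types in the rise of the mitotic genes was not tested.

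**Figure D4:**
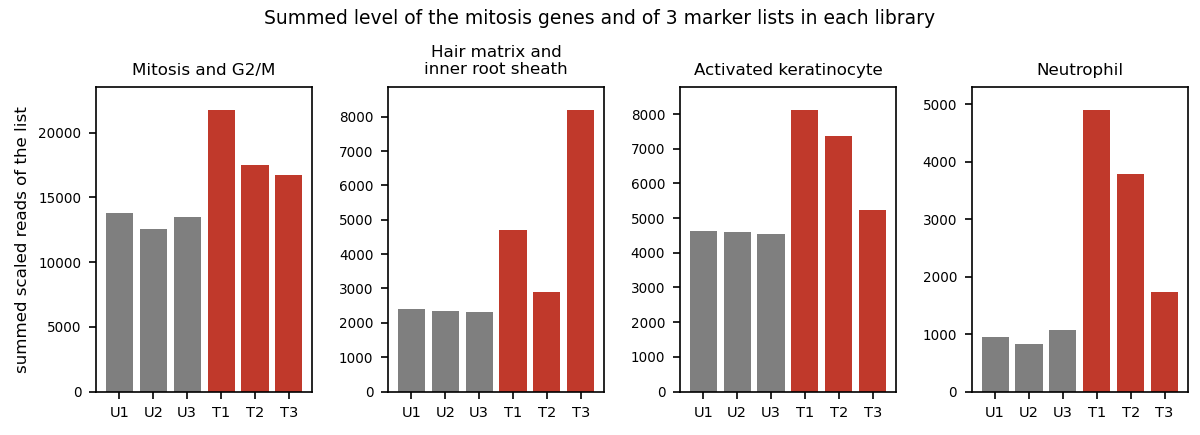
Summed scaled reads (y axis, from 0) of the 37 members and of 3 marker lists in each library, grey for untreated and red for treated. The members are highest in T1 (21790), the hair list in T3 (8210), and the activated keratinocyte and neutrophil lists in T1 (8130 and 4906), where 6 of 8 activated keratinocyte markers reached 0.5 reads per base or more.

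Promoters of the members were read from RefSeq windows (GRCm38.p6, the build also called mm10) of 300 bases, from 250 before to 50 after a start site. A window was found for 31 members, 30 of them at the start of the deposited transcript, and none was used for Aurkb, Ccna2, Foxm1, Incenp, Kif20a and Tpx2. The elements searched on both strands were CCAAT, the box bound by NF-Y, and the CHR in its forms TTTGAA and TTTAAA. Overlapping matches were counted, of which the members' windows hold 2. The 100 bases before the start site are shown for the members with the largest rise (Bub1 and Cenpe), for Top2a and Kif11, which rose and hold both elements, and for Cdk1, Espl1 and Cdc20, which hold both and did not pass the test. Capitals mark the elements, and each sequence runs 5′ to 3′ on the gene's own strand.
Bub1 promoter, chr2:127831860-127831959, minus strand: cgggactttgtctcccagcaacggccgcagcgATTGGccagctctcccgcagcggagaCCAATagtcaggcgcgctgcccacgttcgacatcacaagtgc
Cenpe promoter, chr3:135212463-135212562, plus strand: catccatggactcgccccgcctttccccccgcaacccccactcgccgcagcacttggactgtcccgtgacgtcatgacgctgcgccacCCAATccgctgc
Top2a promoter, chr11:99024190-99024289, minus strand: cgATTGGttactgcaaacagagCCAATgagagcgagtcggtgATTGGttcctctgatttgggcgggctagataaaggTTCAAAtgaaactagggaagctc
Kif11 promoter, chr19:37376282-37376381, plus strand: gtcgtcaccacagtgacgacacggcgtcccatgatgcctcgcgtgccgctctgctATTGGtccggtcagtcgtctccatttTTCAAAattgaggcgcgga
Cdk1 promoter, chr10:69352913-69353012, minus strand: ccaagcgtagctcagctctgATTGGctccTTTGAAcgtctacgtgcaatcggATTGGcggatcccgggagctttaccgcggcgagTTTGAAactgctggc
Espl1 promoter, chr15:102296193-102296292, plus strand: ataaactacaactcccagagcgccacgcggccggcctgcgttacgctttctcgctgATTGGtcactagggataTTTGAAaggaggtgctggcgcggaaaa
Cdc20 promoter, chr4:118437344-118437443, minus strand: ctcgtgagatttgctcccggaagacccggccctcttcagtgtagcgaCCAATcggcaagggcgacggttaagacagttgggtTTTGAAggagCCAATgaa

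In Kif11 the pair stands 45 (CCAAT, as ATTGG) and 19 bases (TTTGAA, as TTCAAA) before the start, in Espl1 44 and 27, and in Cdc20 53 and 18. Cdk1 and Top2a hold several CCAAT boxes, with the last TTTGAA 15 and 23 bases before the start. Bub1, with the second largest fold change of the members, holds 2 CCAAT boxes and neither form of the CHR in its whole window. Cenpe has a CCAAT box 12 bases before the start, and TTTAAA after it, outside the bases shown.

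Of the 31 windows, 25 (80.6%) held CCAAT, 24 (77.4%) TTTGAA, 9 (29.0%) TTTAAA, and 23 (74.2%) CCAAT together with either CHR form. Over all 32851 windows of the RefSeq table the shares were 37.4%, 17.9%, 13.2% and 10.7%, and over the 12156 tested genes with a window 37.8%, 12.2%, 9.39% and 7.89%. Other mitosis genes held the pair in 48.3% of 58 windows, replication and G1/S genes in 11.9% of 42, and APC/C and cohesin genes in 4.76% of 21. Among the members, genes that rose and genes that did not pass held the pair in 10 of 13 and in 13 of 18 windows, CCAAT in 12 and 13, and TTTGAA in 10 and 14. Nuf2 and Nusap1 held none of the 3 elements. Ttk and Anln, with the lowest log2 fold changes, both held TTTGAA. These counts describe letters in a window and not bound sites.

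**Figure D5:**
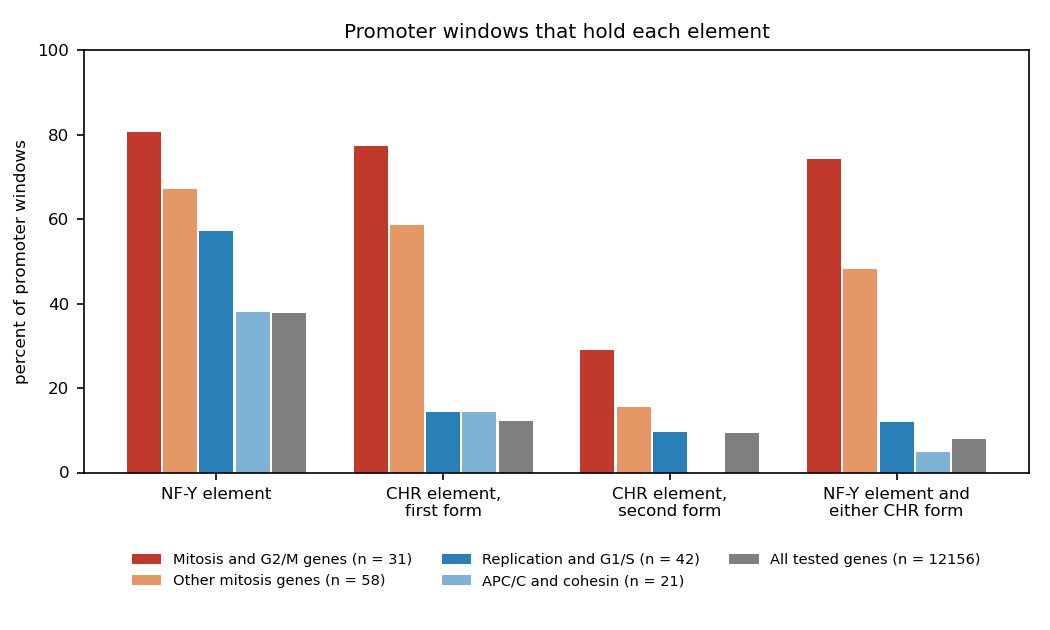
Percent of promoter windows (y axis) that hold the NF-Y element (CCAAT), the CHR element in its first (TTTGAA) or second form (TTTAAA), or the NF-Y element with either CHR form, for 4 gene lists and all tested genes, with the number of windows in the key. The mitosis and G2/M genes hold the pair in 74.2% of windows and all tested genes in 7.89%.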

How the data were processed

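Stranded mRNA libraries were made from whole skin RNA, as the labels' protocols describe. The submitters' processing notes name bcl2fastq 2.20.0.422, STAR, DESeq2 and mm10. The sources used here do not give the read counter. In the 1 table the authors deposited, 6 columns hold a signal, reads of each gene scaled per library, beside the authors' log2 fold changes and p-values and adjusted p-values. In each column 100% of values lay within 0.1 of whole multiples of 1 step, which gave whole reads; reads per base never exceeded 0.923 (0.283 in the members), and no source states how duplicate reads were handled.

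Genes passing filterByExpr of edgeR 4.0.16 (its minimum count set to 10 and its minimum total count to 15), applied to recovered reads, went into limma 3.58.1 (R 4.3.3). The limma fit was on log2(value + 1), with a trend in the spread, and genes were called at adjusted p under 0.05. The log2(value + 1) scale understates the change of low genes. DESeq2 1.42.0, edgeR's quasi-likelihood test, limma-voom, other scalings, filters, pseudocounts (0.5 and 5), a replicate block and leaving out libraries were alternatives; reads estimated from filled positions were added after seeing the data. All 37 members and, of each other list, up to 6 genes with the smallest p could be named. Members and lists were chosen with earlier results of these data known. On data simulated for this comparison (15534 genes), the test recovered 43.3% of genes changed 1.5-fold, 88.1% of those changed 2-fold and 100% of those changed 3-fold, and called 9 of 15334 unchanged genes. Figures were drawn with matplotlib 3.10.9.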

Additional observations from a re-analysis of the deposited data

How the results depend on the processing

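The count of members called higher was within 1.5 times 16 under most alternatives and was 10 with no trend in the spread, 5 at adjusted p under 0.01, 0 in the test against a 1.5-fold change and 27 in the 4 libraries of like depth. Leaving out 1 library gave 11 to 25 members called higher and a median log2 fold change of 0.30 to 0.56. Other mitosis genes called higher were 24 with no trend, 11 at adjusted p under 0.01, 1 against 1.5-fold and 20 to 45 without single libraries. Replication and G1/S genes called higher were 13 with limma-voom, 5 with no trend, 2 at adjusted p under 0.01, 0 against 1.5-fold and 3 to 26 without single libraries. Cycle control genes called higher were 2 with DESeq2, no trend, the 4 libraries of like depth or the authors' deposited comparison, 1 at adjusted p under 0.01, 0 against 1.5-fold and 2 to 6 without single libraries. Cycle control genes called lower were 1 with edgeR, DESeq2, TMM scaling, upper quartile scaling, the replicate block, the authors' comparison or reads estimated from filled positions, 2 in the 4 libraries of like depth and 0 to 1 without single libraries. The APC/C and cohesin genes median log2 fold change was 0.0304 with DESeq2, 0.0305 in the authors' comparison, 0.0363 with limma-voom, 0.0351 with TMM scaling and 0.0358 to 0.0920 without single libraries. The all genes median log2 fold change was 0.0005 with edgeR, 0.0003 with DESeq2, 0.0004 in the authors' comparison, -0.0013 with limma-voom and -0.0008 with TMM scaling. The number of all genes called higher was 922 with no trend, 362 at adjusted p under 0.01, 137 against 1.5-fold and 610 to 1420 without single libraries, and that of all genes called lower was 640, 288, 57 and 529 to 1344 in the same order. Anln changed sign without T1, with log2 fold changes of -0.0993 to 0.1535 over the fits without single libraries. Where no construction of the alternative shows it (fewer libraries, a stricter threshold), the cause was not tested.

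Same-numbered libraries did not deviate together (correlations of deviations -0.09, -0.05 and 0.05). This gave no sign that the numbers pair the samples, but 3 libraries a group are too few to settle it. With the replicate block 16 members were called higher, Ndc80 was called and Ccnb2 was not (adjusted p = 0.0503). With reads estimated from filled positions 16 were called and the median was 0.52. With 3 simulated libraries a group at these depths, 43.3% of genes changed 1.5-fold were recovered, none of them low in reads. Depth was not varied.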
